A study of Mus musculus with 4 samples.

Results

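The 10 genes described here encode proteins by which epithelial cells hold together, with the filament gene Vim beside them. They are the cadherins Cdh1 and Cdh2, the claudins Cldn3, Cldn4, Cldn6 and Cldn7, the tight junction genes Ocln and Tjp1, the adhesion gene Epcam, and Vim. They were chosen by name from 25170 deposited gene symbols, all 10 were found, and all 10 passed a filter of 1 FPKM in at least 1 library, as did 13142 symbols in all. FPKM is a level scaled for transcript length and library size, which can be compared between genes of different length.

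RNA was sequenced from 4 cultures of mouse embryonic stem cells, 1 library for each group. SO is a culture labelled SO treatment, with a wild-type genotype, which the series text lists as an inhibitor treatment. The labels do not spell out SO or give its dose or time. Ldha_KO carries a knockout of Ldha and Ldhb_KO a knockout of Ldhb, the genes of the A and B subunits of lactate dehydrogenase, the enzyme that interconverts pyruvate and lactate. WT is the untreated wild-type culture of the E14 line. All were grown on gelatin in serum medium with LIF. The labels do not say how the knockouts were made or whether each is 1 clone.

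With 1 library per group there is no replicate error, no test and no p-value, and each difference below compares libraries and not conditions. Differences are given on the log2(FPKM + 1) scale, which understates the change of low genes. The word called is used of a difference of at least 1 in size, the 2-fold rule on this scale. The targeted genes went with the labels. Ldha was at 1711 FPKM in SO, 154 in Ldha_KO, 2237 in Ldhb_KO and 1774 in WT, and Ldhb at 139, 158, 5.74 and 76.5 in that order. The 8 pluripotency markers summed to 6292, 5691, 6315 and 6322 FPKM, the largest share from Dppa5a (2630, 2480, 2471 and 2378). Tdgf1 (799.5, 505, 1056 and 752) was called lower in Ldha_KO than in Ldhb_KO, at -1.06. Sox2 (344, 204, 389 and 371) lay at -0.92 there, Nanog at 0.48 and Klf4 at 0.44. Of the 8 markers 4 lay above 0 in that comparison and 4 below, with a median of -0.08. Cldn6 and Cldn7 were called lower in the same comparison, and the part of these markers in that was not tested. Low values put the depths of SO, Ldha_KO and Ldhb_KO at 1.05, 0.995 and 1.05 times that of WT, but the depth in reads is unknown. The value of 1 read kept a steadier ratio between SO and WT (a spread of 0.0167% over genes) than between the knockouts (0.219%) or between Ldha_KO or Ldhb_KO and WT (0.576% and 0.431%). The labels name no batch, and the part of this split in the differences of the knockouts from WT was not tested.

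In an epithelial sheet, adjacent cells are joined by adherens junctions and, nearer the free surface, by tight junctions. Classical cadherins span the membrane at adherens junctions, bind the same cadherin on the next cell and are tied to actin through catenins. Claudins are small proteins with several membrane spans that form the strands of tight junctions and set which ions pass between cells, while occludin sits in the same strands and scaffold proteins such as ZO-1, the product of Tjp1, link them to actin. Mouse embryonic stem cells grow as compact colonies held by E-cadherin. A switch between E-cadherin with claudins and N-cadherin with vimentin is the usual mark of a passage between epithelial and mesenchymal states.

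All 4 claudin members were higher in Ldhb_KO than in every other library, as were Cdh2, Epcam and Ocln. Cldn4, the cadherins, Ocln, Tjp1, Epcam and Vim were not called in any comparison. Cldn3 and Cldn7 were the members called higher in Ldhb_KO against WT, at 2.59 and 2.31 times the WT level. In SO against WT 0 of 10 members were called, where 3.16% of kept genes were called, 2.69% higher and 0.472% lower. In Ldha_KO against WT 0 of 10 were called, where 3.71% of kept genes were, 2.65% higher and 1.06% lower. In Ldhb_KO against WT 2 of 10 were called, both higher, where 4.44% were, 3.36% higher and 1.09% lower. In Ldha_KO against Ldhb_KO 2 of 10 were called, Cldn6 and Cldn7, both lower, where 3.20% were, 1.67% higher and 1.54% lower. The first 3 comparisons share the WT library, and the last shares Ldhb_KO with the third.

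Before the levels, short stretches of DNA near the starts of these genes are shown, because the 4 claudin members share a short motif there. The RefSeq promoter windows of build GRCm38.p6 run from 250 bases before a gene's start to 50 after it, and 8 of the 10 members were matched. Cdh1 and Cdh2 were not matched. The letters CACCTG, read as CAGGTG on the other strand, form the E-box that repressors of the Snail and Zeb families are known to read. This E-box was present in 6 of the 8 matched members, among them all 4 claudins, Epcam and Ocln, and absent from the windows of Tjp1 and Vim. It was present in 22.6% of 27025 genes with a window, and in 20.2% of 32851 windows. Cldn7 and Ocln have 2 windows each, which gives them more chances of a match. The shares were not matched for base content. The median GC content of all windows was 52.7%. It was 52.3% for Cldn6, 52.0% and 62.3% for the windows of Cldn7, and 57.0% to 68.0% for the other matched members. The part of GC content in the motif shares was not tested. The GC box GGGCGG was present in 7 of the 8 members, against 38.2% of genes, and ACGTG, the core of the hypoxia response element, in 3 of the 8, against 21.8%. The grainyhead motif AACCGGTT was present in none, against 0.174% of genes. TATAAA was present in Vim and CCAAT in Ocln and Vim, against 15.7% and 41.1% of genes. All motifs were searched on both strands, and a match is a description of letters and not of binding.

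The E-boxes are shown with the bases around them on the strand of the gene, with the motif in capitals and the position of its first base counted from the gene's start in that window.
Epcam at -187, chr17:87635780-87635809, plus strand: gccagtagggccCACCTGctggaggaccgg
Epcam at -19, chr17:87635948-87635977, plus strand: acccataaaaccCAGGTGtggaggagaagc
Cldn3 at 32, chr5:134986233-134986262, plus strand: caaagccacaggCAGGTGcaggggcagtct
Cldn4 at -14, chr5:134946931-134946960, minus strand: ctttaactgcagCACCTGtggccgcccttt
Cldn4 at 12, chr5:134946906-134946935, minus strand: cctttcttgttgCAGGTGcaggcaggaaag
Cldn6 at -93, chr17:23679260-23679289, plus strand: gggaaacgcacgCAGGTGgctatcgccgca
Cldn6 at 41, chr17:23679385-23679414, plus strand: aatcttagcagtctcttttgCAGGTGagcc
Cldn7 at -97 of its second window, chr11:69965312-69965341, plus strand: tttcttcctcttCACCTGgacgaggagggg
Cldn7 at -57 of its second window, chr11:69965352-69965381, plus strand: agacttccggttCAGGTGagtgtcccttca
Ocln at 8 of its first window, chr13:100552694-100552723, minus strand: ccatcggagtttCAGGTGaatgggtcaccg
Ocln at -68 of its second window, chr13:100552549-100552578, minus strand: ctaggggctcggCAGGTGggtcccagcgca

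By the GENCODE annotation of the same build, the sites of Epcam and the first site of Cldn4 lie outside the exons of their genes, and the other sites touch an exon annotated as untranslated region. In Ldhb_KO against WT, the differences of the 6 members with the motif lay between 0.09 for Epcam and 1.16 for Cldn3, and those of the members without it were 0.02 for Tjp1 and -0.63 for Vim. In Ldha_KO against Ldhb_KO, the 6 lay below 0, between -1.65 and -0.24, and Tjp1 and Vim above it, at 0.12 and 0.19. Both comparisons use the Ldhb_KO library. In SO against WT the 6 lay between -0.46 for Epcam and 0.50 for Cldn6. Tjp1 (0.03) and Vim (-0.40) lay within that range. In Ldha_KO against WT the 6 lay between -0.50 for Cldn7 and 0.27 for Cldn3, and Tjp1 (0.14) and Vim (-0.45) again lay within it. The part of the motif in these levels was not tested.

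The 250 bases before the first start of both members called in Ldhb_KO against WT are given to show the sequence next to both claudins that differed most from WT. Capitals mark matches on either strand to the E-box, the GC box, the ACGTG core or the grainyhead motif.
Cldn3, chr5:134985964-134986213, plus strand: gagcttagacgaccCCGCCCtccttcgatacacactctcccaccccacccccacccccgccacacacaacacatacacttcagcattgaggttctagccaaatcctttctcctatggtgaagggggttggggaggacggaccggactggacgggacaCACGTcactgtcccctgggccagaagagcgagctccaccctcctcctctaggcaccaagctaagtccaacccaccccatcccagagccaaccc
Cldn7, chr11:69964529-69964778, plus strand: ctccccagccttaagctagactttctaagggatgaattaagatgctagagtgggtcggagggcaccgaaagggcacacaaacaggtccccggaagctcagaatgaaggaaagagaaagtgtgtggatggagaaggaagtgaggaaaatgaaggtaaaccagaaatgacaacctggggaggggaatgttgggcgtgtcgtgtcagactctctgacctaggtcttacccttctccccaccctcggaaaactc

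The Cldn3 stretch holds a GC box and an ACGTG core, and the Cldn7 stretch holds none of the 4 motifs.

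The cadherins set the frame. Cdh1, which encodes E-cadherin, was the most abundant member in every library, at 209 FPKM in SO, 169 in Ldha_KO, 193 in Ldhb_KO and 224 in WT. Its highest level was 1.33 times its lowest. The difference from WT was -0.10 in SO, -0.41 in Ldha_KO and -0.22 in Ldhb_KO. With libraries scaled to the same sum these became 0.06, -0.27 and -0.10. Cdh2, which encodes N-cadherin, was near the filter in every library, at 0.912, 1.05, 1.29 and 1.07 FPKM in the same order. Cdh1 thus stood at 229, 160, 149 and 210 times the level of Cdh2, and no library showed Cdh2 near Cdh1.

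Of 23 cadherin genes looked up, 4 passed the filter, and 0 were called in any of the 4 comparisons, where 3.16% to 4.44% of all kept genes were. Cdh3, which encodes P-cadherin and is the next gene to Cdh1 on mouse chromosome 8, was at 26.04 FPKM in SO, 18.1 in Ldha_KO, 20.0 in Ldhb_KO and 15.5 in WT. Its difference in SO against WT was 0.71, below the 2-fold rule, so that Cdh1 exceeded Cdh3 by 8.02 times in SO and by 14.5 times in WT. Cdh24 stayed between 2.74 and 3.25 FPKM.

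**Figure D1:**
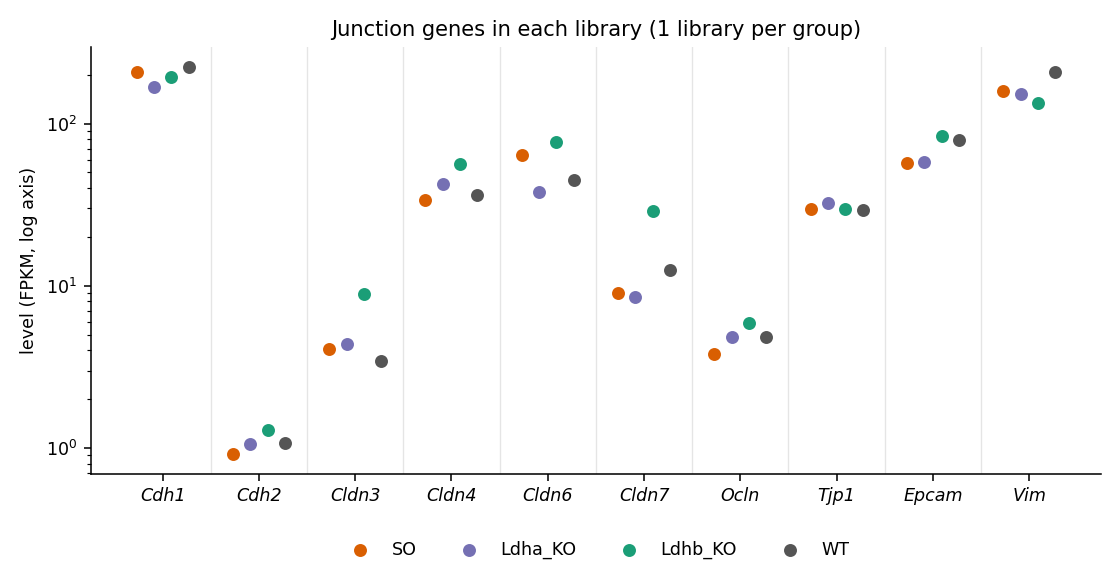
Level of each junction gene in FPKM on a log axis, 1 point per library, in the order SO, Ldha_KO, Ldhb_KO and WT within each gene. Cdh1 lies between 169 and 224 FPKM and Cdh2 near 1. The Ldhb_KO point is the highest of its gene for Cldn3, Cldn4, Cldn6 and Cldn7, and also for Cdh2, Ocln and Epcam.

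Claudins differed most among the members. Cldn7, a claudin of simple epithelia that also binds Epcam, was at 9.08 FPKM in SO, 8.50 in Ldha_KO, 28.8 in Ldhb_KO and 12.5 in WT. Ldhb_KO was alone at the top, and SO and Ldha_KO lay below WT. The difference from WT was -0.42 in SO, -0.50 in Ldha_KO and 1.15 in Ldhb_KO. The value in Ldhb_KO exceeded that of 97.9% of all genes kept. Between the knockouts, the difference of Ldha_KO from Ldhb_KO was -1.65, a ratio of 0.295, and only 0.183% of kept genes had a lower difference there.

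Cldn3, a claudin that seals the space between cells, was low in all libraries, at 4.05 FPKM in SO, 4.34 in Ldha_KO, 8.84 in Ldhb_KO and 3.42 in WT. The values of SO, Ldha_KO and WT lay close together and Ldhb_KO stood above them. The difference of Ldhb_KO from WT was 1.16, above that of 98.0% of kept genes. Ldha_KO was -0.88 from Ldhb_KO, below the 2-fold rule, and -1.01 with a pseudocount of 0.1.

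Cldn6, a claudin typical of embryonic epithelia and pluripotent cells, was the most abundant claudin in 3 of 4 libraries. It was at 63.6 FPKM in SO, 37.6 in Ldha_KO, 76.9 in Ldhb_KO and 44.8 in WT. SO and Ldhb_KO lay above WT and Ldha_KO below it. The differences from WT were 0.50 in SO, -0.25 in Ldha_KO and 0.77 in Ldhb_KO, none of which was called. Between the knockouts the difference of -1.01 was called, and it was -0.99, and no longer called, when libraries were scaled to the same sum.

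Cldn4, a claudin of tight epithelia, was at 34.0 FPKM in SO, 42.3 in Ldha_KO, 56.4 in Ldhb_KO and 36.5 in WT. It was the most abundant claudin in Ldha_KO. The difference of Ldhb_KO from WT was 0.62, above that of 88.5% of kept genes, and was not called. The difference of SO was -0.10, and 0.06 when scaled to the same sum.

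Summed, these 4 claudins stood at 111 FPKM in SO, 92.7 in Ldha_KO, 171 in Ldhb_KO and 97.2 in WT, so Ldhb_KO was at 1.76 times WT and SO and Ldha_KO at 1.14 and 0.954 times. The make-up of the sum differed too. Cldn7 made up 8.19% of it in SO, 9.16% in Ldha_KO, 16.8% in Ldhb_KO and 12.8% in WT. Cldn6 made up 57.4%, 40.6%, 45.0% and 46.1% in the same order, and Cldn4 30.7%, 45.6%, 33.0% and 37.5%. SO was thus the library richest in Cldn6 by share and Ldha_KO the richest in Cldn4, without replicates to set an error on these shares.

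**Figure D2:**
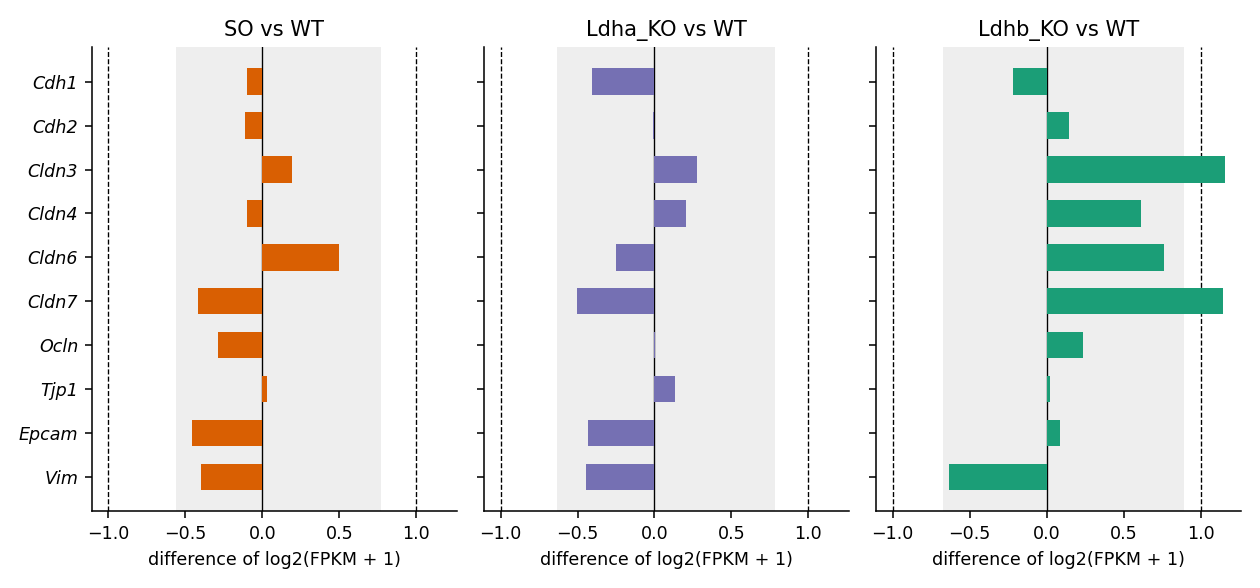
Difference of each junction gene from WT on the log2(FPKM + 1) scale in SO, Ldha_KO and Ldhb_KO, as bars. Dashed lines mark the 2-fold rule and the grey band spans the 5th to the 95th percentile of 13142 kept genes; Cldn3 (1.16) and Cldn7 (1.15) pass the line in Ldhb_KO.

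The wider claudin family followed in part. Of 26 claudin names looked up, 24 were found, 8 passed the filter and 6 were listed at 0 in all 4 libraries. Against WT, 0 of these 8 were called in SO and 0 in Ldha_KO, where 3.16% and 3.71% of all kept genes were. The claudin medians there were -0.03 and -0.28. In Ldhb_KO 2 of 8 were called higher and 0 lower, where 3.36% of all kept genes were higher and 1.09% lower. The median of the 8 there was 0.69, against -0.02 over all kept genes. The 8 hold the 4 members, so this count and this median are not independent of them. Both called genes are members. In Ldhb_KO against WT the others, Cldn5, Cldn9, Cldn12 and Cldn20, lay at 0.11, 0.78, -0.11 and -0.31, and none was called. Cldn9, the next gene to Cldn6 on chromosome 17 and close to it in sequence, was at 1.62 FPKM in SO, 1.08 in Ldha_KO, 3.41 in Ldhb_KO and 1.57 in WT. How reads shared by similar claudins were counted is not stated, so the level of Cldn9 is uncertain. Cldn12 lay between 13.2 FPKM in Ldha_KO and 15.0 FPKM in WT. Cldn5, the claudin of blood vessels, went another way, at 3.32, 0.778, 1.96 and 1.74 FPKM. Cldn20 was highest in WT, at 0.900, 0.191, 0.721 and 1.13 FPKM, and its differences from WT were -0.16, -0.84 and -0.31. Between the knockouts, Cldn6, Cldn7 and Cldn9 were called lower in Ldha_KO, where 1.54% of all kept genes were. All 8 differences lay below 0, with a median of -0.81 against -0.02 over all kept genes. With a pseudocount of 0.1, 6 claudins were called there, and 2 in Ldha_KO against WT. Calls over all 13142 kept genes then also rose, from 421 to 993 between the knockouts and from 487 to 1189 in Ldha_KO against WT. The comparison of the knockouts shares the Ldhb_KO library with that of Ldhb_KO against WT.

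**Figure D3:**
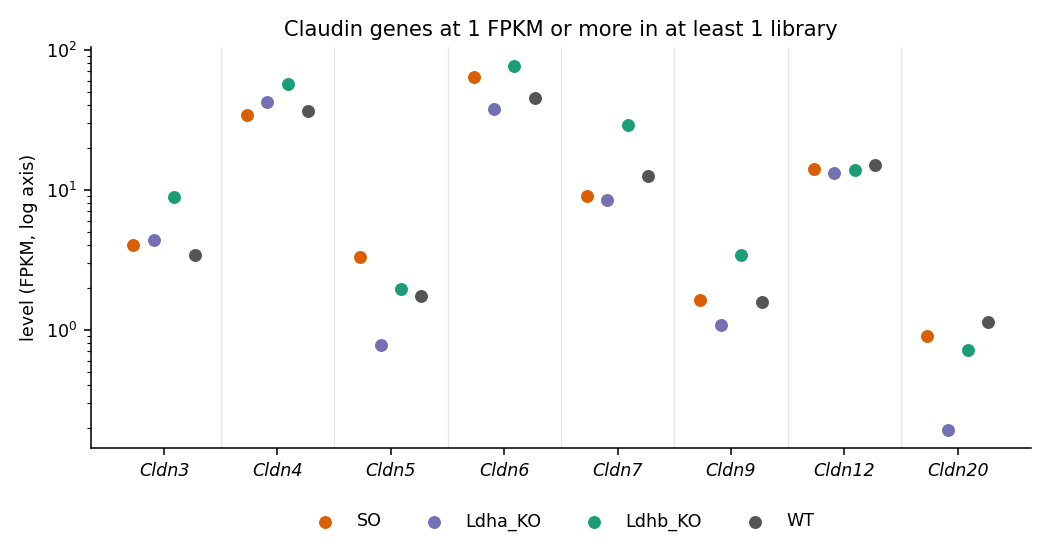
Level in FPKM, on a log axis, of the 8 claudin genes that reached 1 FPKM in at least 1 library, in the order SO, Ldha_KO, Ldhb_KO and WT. Ldhb_KO is highest for Cldn3, Cldn4, Cldn6, Cldn7 and Cldn9, Cldn12 is level, and Cldn5 is highest in SO and lowest in Ldha_KO.

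Occludin and ZO-1 were the steadier members of the tight junction. Ocln was at 3.77 FPKM in SO, 4.83 in Ldha_KO, 5.86 in Ldhb_KO and 4.82 in WT, and its differences from WT were -0.29, 0.0013 and 0.24. Tjp1 was at 29.9, 32.3, 29.7 and 29.3 FPKM in the same order, and its highest level was 1.10 times its lowest, the narrowest range of the 10 members. Its differences from WT were 0.03, 0.14 and 0.02. Ocln was highest in Ldhb_KO, as the claudins were, but by 1.22 times WT.

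Epcam and Vim complete the members. Epcam, a surface protein of epithelial and pluripotent cells that binds Cldn7 and steadies it, was at 57.1 FPKM in SO, 58.0 in Ldha_KO, 83.7 in Ldhb_KO and 78.8 in WT. SO and Ldha_KO lay below WT by -0.46 and -0.43, and Ldhb_KO lay 0.09 above it. Epcam and Cldn7 thus both had their lower values in SO and Ldha_KO. Epcam stood at 6.29, 6.83, 2.91 and 6.31 times the level of Cldn7 in SO, Ldha_KO, Ldhb_KO and WT, so the proportion of the 2 transcripts was alike in 3 libraries and lower in Ldhb_KO.

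Vim, which encodes vimentin, the filament protein of mesenchymal cells that cultured stem cells also express, was at 158 FPKM in SO, 153 in Ldha_KO, 134 in Ldhb_KO and 209 in WT. WT was the highest library. The differences from WT were -0.40, -0.45 and -0.63, the last below all but 5.87% of kept genes, and none was called. In scaled libraries these differences remain below 0. Cdh1 stood at 1.32, 1.10, 1.43 and 1.07 times the level of Vim.

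Read as a group of 10, the members had medians of -0.11 in SO, -0.13 in Ldha_KO and 0.19 in Ldhb_KO against WT, and -0.32 in Ldha_KO against Ldhb_KO, beside medians of -0.04, -0.03, -0.02 and -0.02 over all kept genes. Among genes at 5 FPKM or more in every library, the typical ratio to WT was 0.927 in SO, 0.933 in Ldha_KO and 0.917 in Ldhb_KO, a shift of -0.11, -0.10 and -0.12 on the log2 scale. Relative to that shift the claudin differences in Ldhb_KO are larger, at 1.27 for both Cldn3 and Cldn7.

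Other genes of these junctions were taken from lists written down with earlier results of these data known. Of 24 tight junction genes, Ocln and Tjp1 among them, 23 were kept, and of these 0 were called in SO and 0 in Ldha_KO, and 1 was higher and 1 lower in Ldhb_KO, with medians of 0.06, 0.0013 and 0.09. Over all kept genes 3.16% were called in SO and 3.71% in Ldha_KO, and 3.36% were higher and 1.09% lower in Ldhb_KO. Tjp3, which encodes the scaffold ZO-3, was at 4.81 FPKM in SO, 3.73 in Ldha_KO, 9.45 in Ldhb_KO and 4.22 in WT, and was called higher in Ldhb_KO just past the 2-fold rule. Jam2, an adhesion molecule of the immunoglobulin family, was called lower there, at 65.6, 51.9, 28.6 and 63.0 FPKM, and its difference of -1.11 missed the rule when scaled to the same sum (-0.997). Crb3, which sets the apical side of the cell, was at 17.4, 10.2, 25.3 and 16.2 FPKM and was called lower in Ldha_KO than in Ldhb_KO, as was Tjp3. The kinase gene Prkci (68.4, 61.8, 64.8 and 81.6) was not called, nor was Ybx3 at 259, 234, 310 and 416 FPKM.

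Most adherens junction partners lay below WT in SO and Ldhb_KO, while a few were called higher. Of 16 kept, 1 was called higher in SO, 0 in Ldha_KO and 2 in Ldhb_KO, where 2.69%, 2.65% and 3.36% of all kept genes were, and 0 were called lower in each. Their medians were -0.16, -0.13 and -0.24, and 14, 9 and 11 of the 16 lay below 0, with 2, 7 and 5 above it. Of all kept genes 45.7%, 46.8% and 47.7% lay above 0. The medians over all kept genes were -0.04, -0.03 and -0.02. Genes at 5 FPKM or more in every library had shifts of -0.11, -0.10 and -0.12 from WT. The part of those shifts in the medians of the adherens junction partners was not tested. Ctnnb1, which encodes beta-catenin, was at 316, 331, 290 and 319 FPKM in SO, Ldha_KO, Ldhb_KO and WT, and Ctnna1, alpha-catenin, at 137, 166, 174 and 166. Ajuba was at 66.1, 80.4, 71.6 and 97.9 FPKM. Lima1, an actin-binding protein that ties catenin to actin, was at 19.1, 30.8, 43.5 and 19.7 FPKM and was called higher in Ldhb_KO at 1.10. Nectin4, named after its values were seen, was called higher in SO and Ldhb_KO, at 4.205, 1.45, 2.31 and 0.640 FPKM, or 6.57 times WT in SO and 3.61 times in Ldhb_KO.

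Desmosome genes had medians of 0.26 in SO, 0.26 in Ldha_KO and 0.53 in Ldhb_KO against WT, with 5, 4 and 5 of the 7 kept above 0, and -0.25 in Ldha_KO against Ldhb_KO. Of these 7, 1 was called, Perp, higher in SO, where 2.69% of all kept genes were. Perp was at 49.8 FPKM in SO, against 11.6 in WT, with 18.1 in Ldha_KO and 20.8 in Ldhb_KO. It is also a known p53 target. Pkp2 (66.0, 78.1, 92.8 and 106) and Dsg2 (17.1, 15.4, 14.4 and 19.4) were not called, nor was Pkp3 (5.33, 4.84, 6.69 and 3.79). Of 11 kept partners of Epcam and epithelial surface genes, Epcam included, 0 were called in SO and in Ldhb_KO, where 3.16% and 4.44% of all kept genes were. When libraries were scaled to the same sum, 1 was called in SO, St14, named after its values were seen. It was at 23.5 FPKM in SO and 12.3 in WT, a difference of 0.88 unscaled and 1.03 scaled. Spint2, a protease inhibitor, was at 220, 180, 212 and 220 FPKM, Cd9 at 223, 203, 153 and 185 and Cd24a at 114, 130, 114 and 92.1. Rab25, named after its values were seen, was called lower in Ldha_KO against WT and against Ldhb_KO, where 1.06% and 1.54% of all kept genes were. It was at 3.57, 0.754, 4.36 and 2.71 FPKM. These last values are low.

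**Figure D4:**
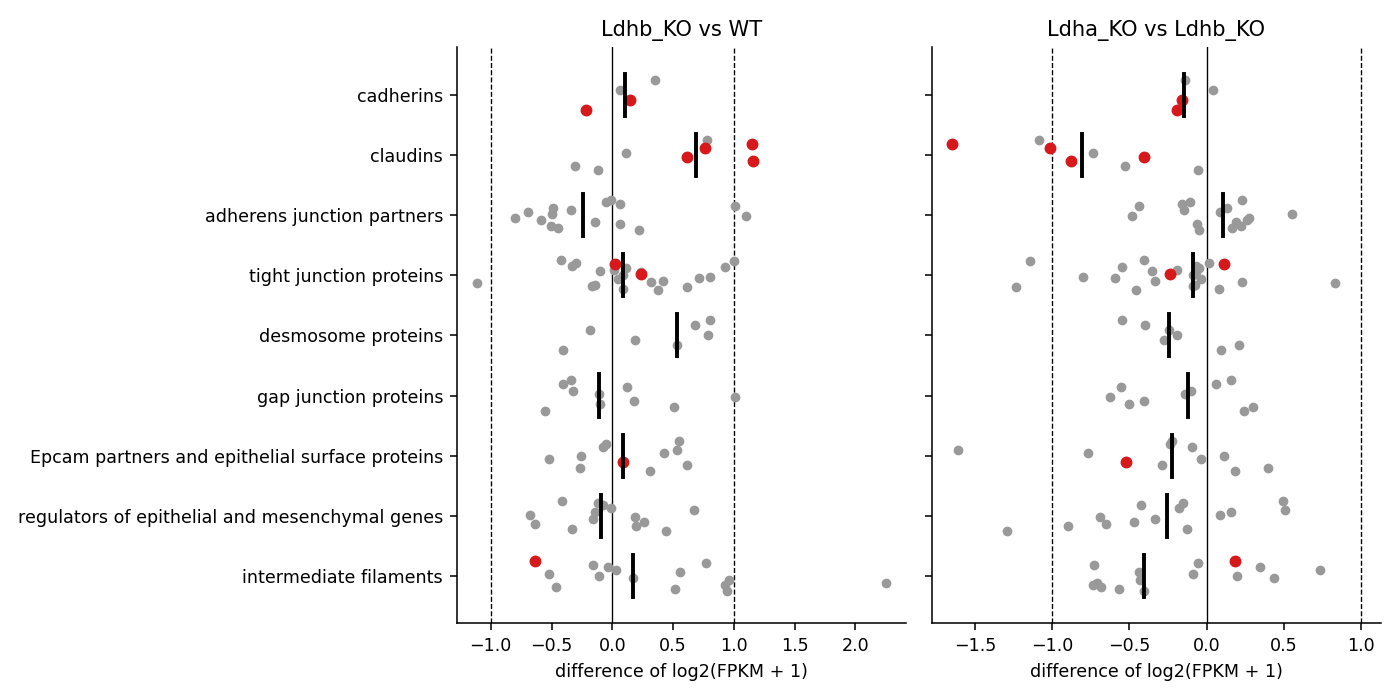
Difference of log2(FPKM + 1) for each kept gene of 9 junction lists in Ldhb_KO against WT and in Ldha_KO against Ldhb_KO, with members of the 10 in red, other genes in grey, the median of a list as a black bar and the 2-fold rule as dashed lines. The claudin medians are 0.69 and -0.81, those of desmosome genes 0.53 and -0.25, those of intermediate filaments 0.17 and -0.40 and those of adherens junction partners -0.24 and 0.11. The claudin list holds the 4 claudin members, so its medians are not independent of them.

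Regulators of epithelial and mesenchymal genes lay mostly below WT, where kept genes as a whole also tended to lie. Of 14 kept, 0 were called in SO, 1 was higher and 1 lower in Ldha_KO, and 0 were called in Ldhb_KO against WT. Over all kept genes 3.16% were called in SO, 2.65% were higher and 1.06% lower in Ldha_KO, and 4.44% were called in Ldhb_KO. The medians of the 14 were -0.20, -0.47 and -0.10, with 11, 11 and 9 below 0 and 3, 3 and 5 above it. Over all kept genes 45.7%, 46.8% and 47.7% lay above 0. Genes at 5 FPKM or more in every library had shifts of -0.11, -0.10 and -0.12 from WT, so the median in Ldhb_KO was near that shift. In SO 1 regulator, Grhl3, was called when libraries were scaled. Named after its values were seen, it differed by 0.93 unscaled and 1.08 scaled to the same sum. Grhl2, a grainyhead factor that activates Cdh1 and claudin genes, was at 4.70 FPKM in SO, 2.97 in Ldha_KO, 5.22 in Ldhb_KO and 8.65 in WT, and was called lower in Ldha_KO at -1.28. Esrp1, an epithelial splicing factor, was at 9.56, 7.41, 19.6 and 14.2 FPKM and was called lower in Ldha_KO than in Ldhb_KO at -1.29. The gene called higher in Ldha_KO was Snai2, named after its values were seen, at 0.762, 1.56, 0.797 and 0.126 FPKM. Snai1 was at 7.75, 5.13, 4.48 and 5.04 FPKM and Zeb1 at 4.33, 5.25, 3.44 and 4.91, and neither was called. Klf5 was at 132, 111, 141 and 157 FPKM, Tcf3 at 21.9, 20.2, 22.9 and 23.1 and Tgfb1 at 19.6, 17.0, 23.2 and 24.4.

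Markers of other cell types were read beside the claudins, since fewer cells of a type and less RNA per cell cannot be told apart in bulk RNA. Of 8 markers of trophectoderm, the outer epithelium of the blastocyst, 4 were kept. Of these 1, Tfap2c, was called higher in Ldhb_KO, where 3.36% of all kept genes were. Tfap2c was at 12.01 FPKM in SO, 11.5 in Ldha_KO, 26.1 in Ldhb_KO and 9.80 in WT, and was called lower in Ldha_KO than in Ldhb_KO. The keratin gene Krt7 was at 1.02, 0.847, 1.49 and 0.280 FPKM, a difference of 0.96 in Ldhb_KO against WT that passed the 2-fold rule when libraries were scaled (1.03 to the same sum). Eomes (9.22, 6.77, 3.77 and 4.84) and Hand1 (2.12, 1.09, 0.690 and 0.862) lay below WT in Ldhb_KO and above it in SO and Ldha_KO. The medians of the 4 were 0.70 in SO, 0.31 in Ldha_KO and 0.41 in Ldhb_KO, with 4, 4 and 2 above 0. All 8 summed to 25.7, 21.7, 32.9 and 16.7 FPKM, while the defining Cdx2 was at 0.188, 0.119, 0.0749 and 0.433, Gata3 at 0.720, 0.782, 0.335 and 0.352 and Elf5 at 0.290, 0.441, 0.289 and 0.159. Plac1 was listed at 0 in WT. The part of this list in the claudin levels was not tested.

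Of 10 fibroblast markers, which bear on Vim, 3 were kept, and they summed over all 10 to 47.7, 42.1, 52.5 and 49.9 FPKM, of which Thy1, also expressed by stem cells, gave 42.0, 36.9, 46.2 and 47.4. Lum and Dcn were listed at 0 in all 4 libraries. Pdgfrb was at 3.35, 2.80, 3.63 and 0.949 FPKM and was called higher in SO and Ldhb_KO, and when libraries were scaled also in Ldha_KO, and Vim lay below WT in all 3. Of 8 primitive endoderm markers 4 were kept and 0 called in any comparison, where 3.16% to 4.44% of all kept genes were. The 8 had sums of 13.96, 17.99, 15.4 and 11.9 FPKM, with Sox17 listed at 0 in WT. The 11 markers of 2-cell-like cells, the state that the study is about, summed to 98.2 FPKM in SO, 71.8 in Ldha_KO, 10.8 in Ldhb_KO and 10.5 in WT. SO and Ldha_KO, the libraries where these were high, are the ones with Epcam and Cldn7 below WT, and the part of such cells in that was not tested.

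The genes most like each called claudin were found by the distance between their differences from WT in SO, Ldha_KO and Ldhb_KO, over 9041 genes with a mean of at least 5 FPKM, a likeness over 4 libraries that share WT. Closest to Cldn7 were Hspb6, a small heat shock protein (5.06 FPKM in SO, 4.80 in Ldha_KO, 16.3 in Ldhb_KO and 7.10 in WT), Glod5 (6.99, 5.76, 23.1 and 8.96) and the alanine aminotransferase gene Gpt2, at distances of 0.0528, 0.173 and 0.271. Closest to Cldn3 were Tmem219, Gstm4 and the tetraspanin gene Tspan7, at distances of 0.0790, 0.0956 and 0.166. Closest to Cldn6 were the sterol reductase gene Tm7sf2, Ap1m2, an epithelial clathrin adaptor subunit, and Tsku, at distances of 0.180, 0.193 and 0.226. Ap1m2 was at 13.9 FPKM in SO, 8.98 in Ldha_KO, 16.02 in Ldhb_KO and 10.1 in WT. No claudin was among the 3 nearest genes of any of these claudins. Cldn5, Cldn9 and Cldn20, with means below 5 FPKM, were not compared. With few claudins among 9041 genes, this says little about a pattern shared by claudins.

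Neighbours on the chromosome moved with the claudins in part. In Ldhb_KO against WT, Slc2a4 (0.66), Tnfrsf12a (0.30), Mettl27 (0.27) and Abhd11 (0.10) lay above 0, and Elp5 (-0.46) below it. In Ldha_KO against Ldhb_KO they lay at -0.66, -0.52, -0.34 and -0.33, and Elp5 at 0.08. None of these was called. Tnfrsf12a lies next to Cldn6 and Mettl27 next to Cldn4. Cldn3 and Cldn4 lie next to each other on chromosome 5, and the next gene beyond Cldn3, Abhd11, was at 27.2 FPKM in SO, 27.3 in Ldha_KO, 34.5 in Ldhb_KO and 32.2 in WT. On chromosome 11 Cldn7 lies between Slc2a4 (3.04, 2.18, 4.04 and 2.20) and Elp5 (50.5, 42.0, 39.8 and 55.3), and the difference of Elp5 in Ldhb_KO against WT was -0.46. On chromosome 13 Marveld2, a relative of occludin at 3-cell corners, lies next to Ocln and was at 2.84, 3.00, 5.05 and 2.68 FPKM, a difference of 0.72 in Ldhb_KO against WT beside 0.24 for Ocln.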

How the data were processed

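RNA sequencing of 4 mouse embryonic stem cell libraries was analysed, 1 per group. The deposited values were read as FPKM made by the authors, from the values alone: they are not whole numbers, sum to 471595 to 526316 per library and their smallest steps depend on the gene. Whether fragments or reads were counted, FPKM or RPKM, cannot be told apart. Per the submitters' processing notes, the genome build is mm9. These notes also list edgeR 3.26.8, HTSeq 0.11.2, Bowtie2 2.3.4.3 and SAMtools 1.9, with no role for any, and the annotation is not stated.

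From these values the difference of log2(FPKM + 1) between 2 libraries was computed with Python 3.11.15 and pandas 2.3.3, over 13142 genes with at least 1 FPKM in at least 1 library, and called at 1. The step was tested on simulated data. Alternatives were a pseudocount of 0.1, no filter, a filter of 5, and libraries scaled to the summed value of WT or by the median ratio to WT. Members, lists and motifs were chosen with earlier results of these data known. Of 201 list entries 199 were found, 2 of them by an older name in the RefSeq table of GRCm38.p6. Genes named were the 10 members, Ldha, Ldhb, up to 6 called genes with at least 5 FPKM and 3 abundant genes per list, the 3 genes nearest to each called member, marker genes and neighbours. Others were chosen after their values were seen. Promoter windows are those of RefSeq GRCm38.p6, set beside GENCODE of the same build. No coordinates of the authors' build were used. The depth in reads is unknown, so no counting interval was computed.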

Additional observations from a re-analysis of the deposited data

How the results depend on the processing

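Of 196 recomputed differences of single members, 188 kept their direction and their side of the 2-fold rule. Those with no filter or a filter of 5 equal the main value by construction. A filter changes only which genes are tested, so these say nothing about stability. Cldn3 in Ldha_KO against Ldhb_KO passed the rule with a pseudocount of 0.1 (-1.01), and Cldn6 missed it when libraries were scaled to the summed value of WT (-0.99), which left 1 member called in that comparison. The other 6 were small differences that changed sign under scaling, those of Cdh1 and Cldn4 in SO and of Cdh2 in Ldha_KO. Cldn3 and Cldn7 were called in Ldhb_KO against WT under all 5 alternatives, but these settings could not have undone the calls. The filters leave a difference unchanged. The smaller pseudocount enlarges it (1.35 for Cldn3 and 1.20 for Cldn7), and both scalings raise Ldhb_KO relative to WT (1.26 for both genes at the same sum). The counts over all genes moved with a pseudocount of 0.1 to 990 in SO, 1189 in Ldha_KO and 1452 in Ldhb_KO against WT and to 993 in Ldha_KO against Ldhb_KO. With a filter of 5, under which fewer genes are tested, they were 274 in SO and 380 in Ldhb_KO, and Cdh2 was left out. No paired analysis was possible because each group has 1 library, and no library could be left out for the same reason. Higher genes made up 85.1%, 71.5% and 75.5% of those called in SO, Ldha_KO and Ldhb_KO against WT, and 91.9%, 83.3% and 86.4% when scaled to the summed value of WT. By the median ratio the last was 86.9%.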

Other observations

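Filament and channel genes of the same cells were read beside the members. Of 15 intermediate filament genes, all kept, 2 were called higher and 2 lower in SO against WT, 1 and 1 in Ldha_KO, and 1 and 0 in Ldhb_KO. Over all kept genes 2.69% were higher and 0.472% lower in SO, 2.65% and 1.06% in Ldha_KO, and 3.36% and 1.09% in Ldhb_KO. When libraries were scaled, 4 of the 15 were called in Ldhb_KO. Calls over all 13142 kept genes then rose from 584 to 728 there at the same sum. The simple epithelial keratin Krt19 was at 32.2 FPKM in SO, 20.4 in Ldha_KO, 34.1 in Ldhb_KO and 6.38 in WT, and was called in each comparison with WT. Its partners Krt8 (19.3, 30.6, 22.3 and 19.7) and Krt18 (19.8, 17.0, 29.0 and 14.8) were not called, but Krt18, at 0.93 in Ldhb_KO, passed the rule when libraries were scaled (1.04 to the same sum, 1.05 by the median ratio). The neuronal filament genes Ina (6.61, 10.7, 17.7 and 24.8) and Prph (9.45, 11.3, 19.4 and 21.7) were called lower in SO, and Ina also in Ldha_KO, while Prph in SO missed the rule when scaled to the same sum (-0.98). The nuclear lamin gene Lmnb1 was at 159, 164, 174 and 249.4 FPKM. Synm, named after its values were seen, was the other gene called higher in SO, at 4.18 FPKM, against 1.38 in WT.

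Of 10 gap junction genes kept, 0 were called in SO and Ldha_KO and 1 in Ldhb_KO, where 3.16%, 3.71% and 4.44% of all kept genes were. The called gene was Gjb2, named after its values were seen, at 1.78 FPKM, against 0.381 in WT. Gja1, the connexin 43 gene, was at 73.1 FPKM in SO, 39.9 in Ldha_KO, 33.6 in Ldhb_KO and 49.8 in WT. Gjc1 was at 45.8, 45.4, 43.4 and 57.8 FPKM. The highest and the lowest library of Gja1 and of the claudin sum differed: Gja1 was highest in SO and lowest in Ldhb_KO, and the 4 claudins were highest in Ldhb_KO and lowest in Ldha_KO.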
